A study of Mus musculus with 764 samples.

Results

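The genes described here are 8 genes of the cytotoxic granule, taken by name from the 23997 gene rows: Gzma, Gzmb, Gzmk, Gzmc, Prf1, Nkg7, Srgn and Lamp1. All 8 had a row. They were measured in single IL-10-producing CD4+ T cells, sorted as IL-10+ CD4+ T cells from small intestine and spleen of mice treated with anti-CD3 antibody, and sequenced cell by cell with SMART-seq2, a full-length cDNA method without molecular identifiers. All cells of both tissues therefore came from treated animals, and no untreated or IL-10-negative cell was analysed here. The mice carried IL-10 eGFP and Foxp3 mRFP reporters, and IL-10-producing cells with Foxp3 were included in the single-cell data. The labels name no animal, so that each tissue is 1 sample.

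Cytotoxic lymphocytes store granzymes, which are serine proteases, in secretory lysosomes together with perforin, the pore-forming protein that lets granzymes reach the cytosol of a target cell. Serglycin is the proteoglycan on which granzymes are packed, LAMP-1 lines the granule membrane, and NKG7 is a membrane protein of the granule that takes part in its release. The program is best known from CD8+ T cells and NK cells, but activated CD4+ T cells, among them IL-10-producing type 1 regulatory cells, can also carry granzymes.

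After removal of cells with low totals and of cells called S or G2M, 72.1% of the 190 small intestine (SI) cells and 400 spleen cells (69.7% of all) were compared. Spleen cells came from 3 well sets of like size: plate p1 columns 1 to 12 (69.3% of its cells kept), p1 columns 13 to 24 (76.3% kept) and p2 (63.5% kept). SI cells filled the other columns of p2, so that tissue and plate position cannot be told apart there. Kept cells held from 162801 to 622997 reads, with medians of 324546 in SI and of 366140, 362505 and 315920 in the 3 spleen sets. With 1 sample per tissue no p-value was computed, and intervals are exact 95% intervals that cover counting error only. A level is given as CPM, counts of a gene scaled to a common total in every cell, and then averaged over cells. Cd3e was read 10 times or more in all kept cells, and Cd4 in 99.3% of SI and 98.5% of spleen cells. Foxp3 reached 10 reads in 72 cells of p1 columns 1 to 12, in 19 cells of p1 columns 13 to 24, in 5 cells of p2 spleen and in 5 SI cells.

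The upstream DNA of 4 members is shown because these genes behaved differently between the tissues: Gzma, Gzmb and Prf1 were higher in SI, while Lamp1 was not. Each window holds the 250 bases before the RefSeq start site (GRCm38.p6), read 5′ to 3′ on the strand of the gene. They lie at chr13:113100982-113101231 for Gzma and chr14:56262335-56262584 for Gzmb, both on the minus strand, and at chr10:61297586-61297835 for Prf1 and chr8:13158911-13159160 for Lamp1, both on the plus strand. Capitals mark matches, on either strand, to 5 motifs: RUNX (TGTGGT), T-box (GGTGTGA), AP-1 (TGANTCA), E-box (CACGTG) and STAT (TTCNNNGAA).
Gzma: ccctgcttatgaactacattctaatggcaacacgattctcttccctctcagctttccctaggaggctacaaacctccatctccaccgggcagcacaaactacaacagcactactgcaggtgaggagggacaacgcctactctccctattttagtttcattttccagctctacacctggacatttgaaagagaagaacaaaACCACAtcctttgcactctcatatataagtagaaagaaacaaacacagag
Gzmb: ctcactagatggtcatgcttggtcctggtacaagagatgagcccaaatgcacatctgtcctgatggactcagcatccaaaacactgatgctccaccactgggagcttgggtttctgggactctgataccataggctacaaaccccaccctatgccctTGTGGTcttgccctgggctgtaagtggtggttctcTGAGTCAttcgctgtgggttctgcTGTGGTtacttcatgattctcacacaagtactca
Prf1: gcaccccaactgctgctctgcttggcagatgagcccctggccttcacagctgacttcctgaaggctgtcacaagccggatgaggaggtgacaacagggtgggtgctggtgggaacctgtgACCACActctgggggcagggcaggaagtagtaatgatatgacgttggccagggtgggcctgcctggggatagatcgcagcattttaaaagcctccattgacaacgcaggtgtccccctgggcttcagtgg
Lamp1: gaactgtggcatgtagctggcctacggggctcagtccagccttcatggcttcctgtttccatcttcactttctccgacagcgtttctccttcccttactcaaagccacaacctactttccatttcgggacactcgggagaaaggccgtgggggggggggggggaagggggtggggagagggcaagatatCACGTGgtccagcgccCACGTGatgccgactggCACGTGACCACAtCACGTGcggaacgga
The RUNX letters were present upstream of 7 of the 8 members, among them Gzma (at position -50 from the start), Gzmb (at -93 and -34) and Prf1 (at -130). Srgn and Lamp1, which were not higher in SI, also held them, and Gzmk, which was higher, did not. Srgn had 2 windows and held the letters in 1 of them. Of all 32851 promoter windows of the same length, 14.05% held these letters. The T-box letters occurred upstream of Gzmk and Nkg7 and in 3.33% of all windows. Gzmb alone held the AP-1 letters (6.75% of all windows), Nkg7 alone the STAT letters (7.02%), and the 4 E-box matches were all upstream of Lamp1 (6.02%). In Lamp1 the RUNX match adjoins the third E-box. RUNX proteins, T-bet and Eomes are known regulators of cytotoxic genes, and a match of letters is a description of the window, not a site of binding.

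Across the 8 members, SI and spleen cells differed most in the granzymes and perforin. A gene was called higher in SI at a log2 ratio of mean CPM (each + 1) of at least 1 with the SI mean above all 3 spleen sets, among genes with a mean of at least 10 CPM in either tissue, and lower by the mirror of this rule. By this rule 4 members were higher in SI (Gzma, Gzmb, Gzmk and Prf1), none was lower, and Nkg7, Srgn and Lamp1 met neither limit. Gzmc was too low to be tested. Of all 8824 genes tested, 8.26% were higher and 16.8% were lower by the same rule, and the median log2 ratio was -0.22. The median of the 7 tested members was 2.27. Together the 8 genes took 6.56% of all reads in SI cells, against 0.934%, 0.938% and 0.802% in the 3 spleen sets.

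**Figure D1:**
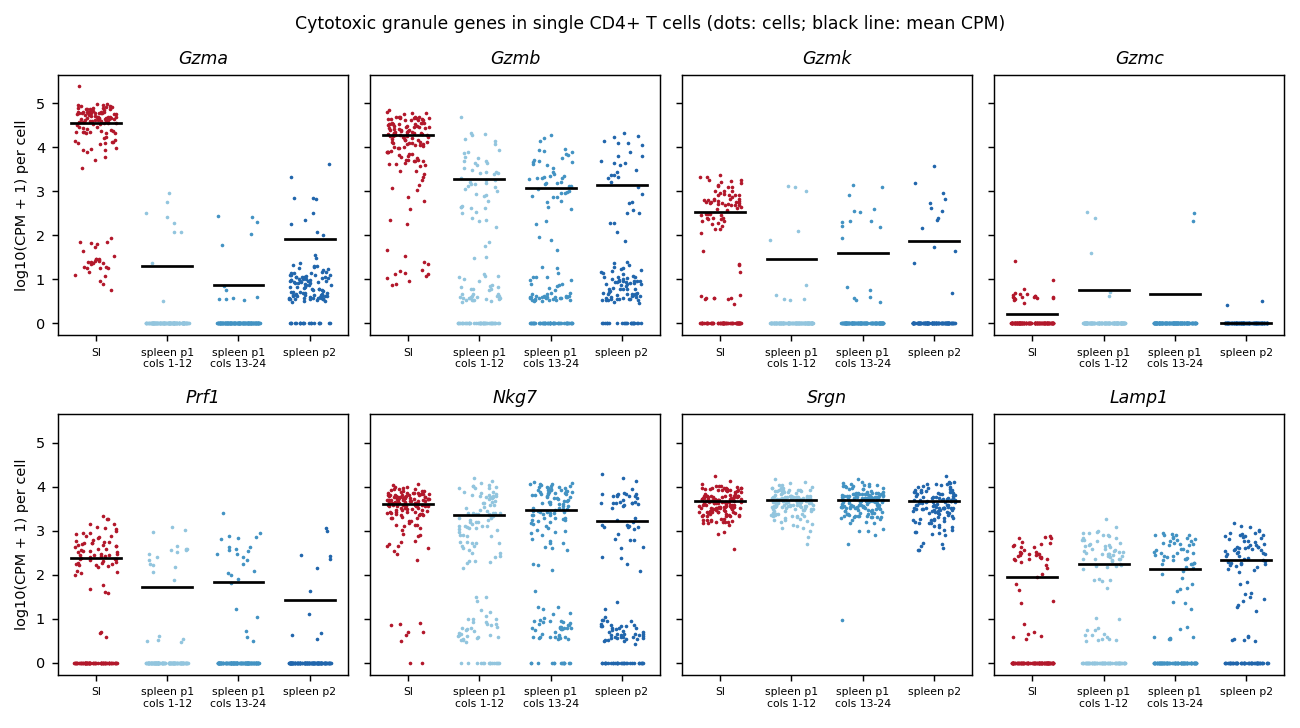
Expression of the 8 genes per cell, as log10(CPM + 1), in SI and in the 3 spleen well sets (dots are cells, black lines the mean CPM on the same scale). Gzma split SI cells into a large upper and a small lower group, while Srgn was at a like level in all sets.

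Gzma, which encodes a tryptase, was the gene with the highest mean CPM of all genes in SI cells and had the largest log2 ratio of all genes tested. Its level in single SI cells ranged from 4.76 to 243311 CPM with a median of 38064, and its mean was 36732 CPM (SD 33096 over cells). In the spleen sets the means were 18.9, 6.45 and 82.7 CPM, with a median cell at 0 in both p1 sets and at 5.25 CPM in p2. The log2 ratio was 10.04 against all spleen cells and 8.78 against the spleen cells of p2 alone.

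The SI cells did not form a continuum in Gzma. No SI cell had a number of reads between 31 and 1213: 78.1% of cells (interval 70.2% to 84.7%) held 1213 reads or more, and the other 30 held 31 or fewer, with a median of 7. A limit of 10 reads placed 11 of these 30 low cells on the positive side, which gave a share of 86.1% (interval 79.2% to 91.4%), and after thinning each cell to 200000 reads the share was 81.1%. In the spleen the high state was rare: 9 of 400 cells held 100 Gzma reads or more, 3 of them in p1 columns 1 to 12 and 6 in p2, and a single spleen cell reached 1000 reads.

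Low Gzma reads were common in spleen cells of p2 and rare in those of p1. Of kept p2 spleen cells, 75.4% held 1 to 9 reads, against 1.504% and 4.83% in the p1 sets, and over all cells before filtering the shares were 74.5%, 1.04% and 3.68%. SI cells of the same plate had no cell at 0. Over the 16 rows of p2, the mean of these low reads in spleen wells ran from 0.909 to 4.33 per cell, and its Spearman correlation with the summed Gzma reads of the SI wells of the same row was 0.75, given as a description over rows that share a plate. The same value for Gzmb was 0.41. Of low Gzmb reads, 55.7% of p2 spleen cells held 1 to 9, against 27.1% and 30.3% in p1. Where these reads came from was not tested. A single read of Gzma or Gzmb was for this reason not taken as expression, and shares are given at 10 reads.

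**Figure D2:**
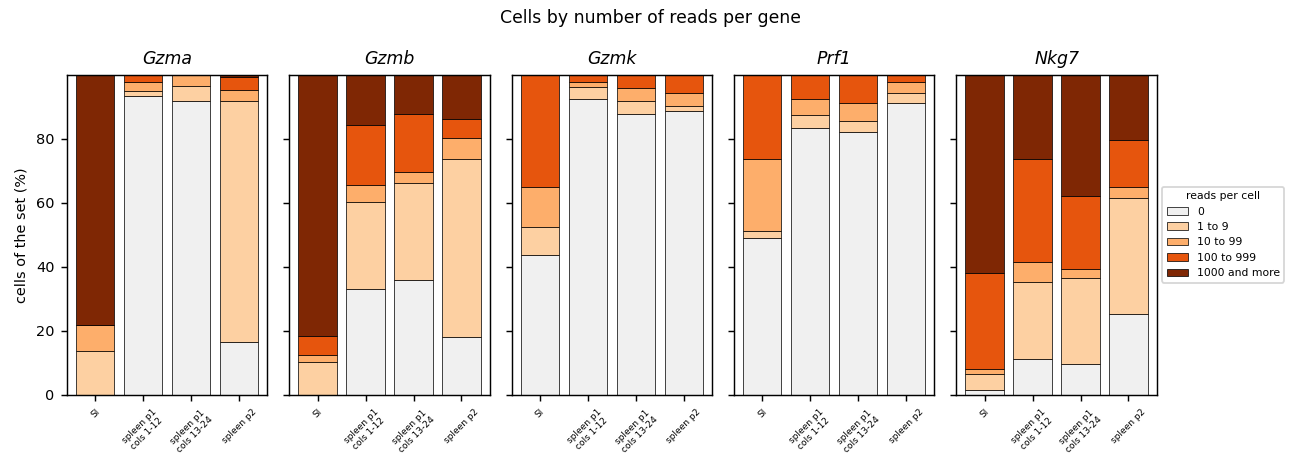
Share of cells by number of reads for 5 members in SI and in the 3 spleen sets (y axis, % of cells; colours, reads per cell). For Gzma, 1 to 9 reads were held by 75.4% of p2 spleen cells but by 1.504% and 4.83% of cells in the p1 sets.

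Gzmb, whose product cleaves after aspartate and activates caspases, was abundant in SI and was the main granzyme of the spleen. Its mean was 19277 CPM in SI (SD 16838, lowest 6.47, median 15920, highest 70236). The means of the spleen sets were 1903, 1187 and 1375 CPM, and the median spleen cell held 4.97 CPM. At least 10 reads were found in 89.8% of SI cells (interval 83.4% to 94.3%) and in 39.8%, 33.8% and 26.2% of cells in the 3 spleen sets. The spleen mean thus rested on a minority of cells, and the tenth of spleen cells with the highest values carried 76.98% of the summed CPM, against 28.2% in SI. Among cells with 10 reads or more, the median was 18906 CPM in SI and 2010 CPM in the spleen, so that both the share of cells and the level per positive cell were higher in SI. The log2 ratio was 3.70.

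Gzmk, another tryptase, was present in about as many SI cells as lacked it. Its mean was 340.7 CPM in SI (lowest 0, median 3.37, highest 2406) and 28.4, 38.7 and 73.5 CPM in the spleen sets. Of SI cells, 47.4% held 10 reads or more (interval 38.9% to 56.1%), against 3.76%, 8.28% and 9.84% in the spleen. Positive cells themselves had a median of 560.9 CPM in SI and of 359.3 CPM in the spleen. The log2 ratio was 2.87, and 2.20 within p2.

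Gzmc, a granzyme of the same gene cluster as Gzmb, was close to absent. No kept SI cell held 10 reads, which by the exact interval leaves room for at most 2.66% of cells, and the highest kept SI cell had 8 reads. In the spleen 4 cells held 97.7% of all Gzmc reads, 2 of them in each p1 set, and 2 of these 4 cells also had 10 or more Gzmb reads. SI cells with a Gzmc read (19 cells) had a median of 34615 CPM of Gzmb, against 12737 CPM in those without. The longest identical run between the coding sequences of Gzmb and Gzmc was 49 bases (GENCODE M21 coding sequences). It is shown because reads within it would match both genes exactly, while reads aligned with mismatches were not examined.
Gzmb and Gzmc: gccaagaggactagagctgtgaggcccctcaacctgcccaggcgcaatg
No window of 50 bases was shared between the 2 transcripts, while the longest identical runs of Gzma with Gzmk and of Gzma with Gzmb were 13 and 11 bases. Reads of Gzmc in SI cells came to 0.00346% of the reads of Gzmb, against 0.228% in the spleen.

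Prf1, the gene of perforin, was higher in SI but reached 10 reads in fewer SI cells than Gzmb. The mean was 243.8 CPM in SI (lowest 0, median 3.68, highest 2122) and 52.04, 68.5 and 25.2 CPM in the spleen sets. At least 10 reads were found in 48.9% of SI cells (interval 40.3% to 57.6%), and in 12.8%, 14.5% and 5.74% of spleen cells. Positive cells had a median of 341.4 CPM in SI and 300.6 CPM in the spleen, so that the 2 tissues differed mostly in the share of positive cells. The log2 ratio was 2.27, and 3.23 within p2.

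Nkg7 was common in both tissues. The mean was 4096 CPM in SI (lowest 0, median 4114, highest 11317) and 2246, 2964 and 1622 CPM in the spleen sets, a log2 ratio of 0.82 that was below the limit of 1. The SI mean was nevertheless above each of the 3 spleen sets, as it was for 25.3% of all genes tested. Shares with 10 reads were 93.4% in SI (interval 87.9% to 96.95%) and 64.7%, 63.4% and 38.5% in the spleen. In p2 spleen cells the median was 5.49 CPM, against 761 and 1472 CPM in the p1 sets. With scaling factors from TMM or from median ratios the log2 ratio passed 1, and within p2, where 10.3% of all genes were higher and 18.5% lower by 2-fold, it was 1.34 for Nkg7 and -1.32 for Lamp1.

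Srgn and Lamp1, the packing proteoglycan and the membrane protein, did not follow the granzymes. Srgn had a mean of 4780 CPM in SI and of 4911, 4980 and 4627 CPM in the spleen sets, with a log2 ratio of -0.02 that turned to 0.18 with TMM and 0.21 with median-of-ratios scaling. All SI cells and 99.8% of spleen cells held 10 reads of it. Lamp1 had a mean of 85.5 CPM in SI and of 174.7, 131.7 and 215.5 CPM in the spleen sets, at a log2 ratio of -0.996 that did not quite reach the limit for lower genes. It was read 10 times in 25.5% of SI cells (interval 18.5% to 33.7%) and in 40.6%, 35.2% and 48.4% of spleen cells. Lamp1 lay below each spleen set, as 44.7% of all genes tested did.

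**Figure D3:**
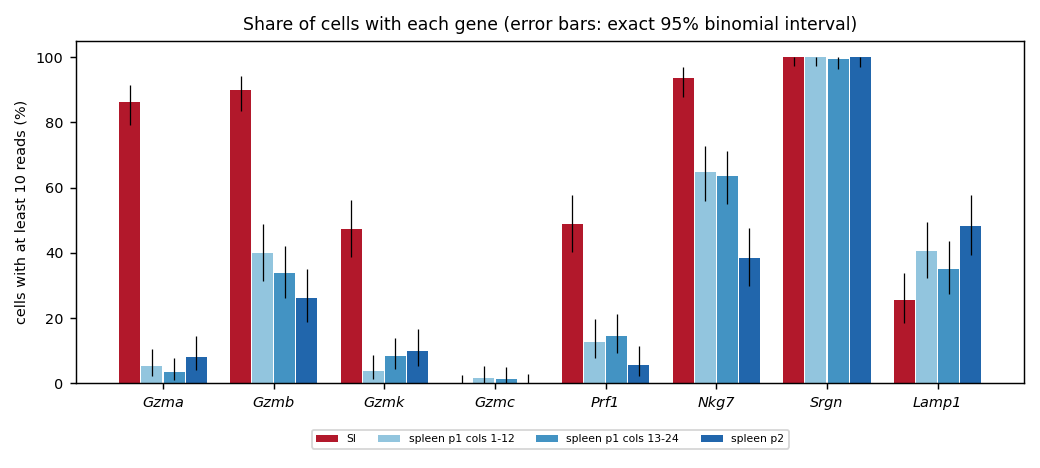
Share of cells with at least 10 reads of each gene in SI and in the 3 spleen sets (y axis, % of cells; error bars, exact 95% binomial intervals). The intervals of SI lie above those of all spleen sets for Gzma, Gzmb, Gzmk, Prf1 and Nkg7, and below that of p2 for Lamp1.

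Divided by the length of the transcript, the order of mean levels differed between tissues. In SI it was Gzma (41836 CPM per kb), Gzmb (13424), Nkg7 (4649), Srgn (2768), Gzmk (331.4), Prf1 (98.6), Lamp1 (38.4) and Gzmc (0.718). In the spleen Srgn led (2808 CPM per kb), followed by Nkg7 (2629), Gzmb (1032), Lamp1 (76.95), Gzmk (44.6), Gzma (38.6), Prf1 (20.1) and Gzmc (3.27). In the spleen, neighbours in this order did not differ beyond the spread of the well sets for Srgn and Nkg7 and from Lamp1 to Prf1. Gzma exceeded Gzmb per kb by 3.12 times in SI, and by CPM Gzma exceeded Gzmb in 83.8% of SI cells with 10 reads of both. In the median SI cell, Gzma and Gzmb together took 5.75% of all reads, and 27.2% in the highest cell.

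The 3 spleen sets also differed among themselves. Nkg7 and Prf1 had their lowest shares in p2 and Gzmk its highest there. Gzmb was highest in p1 columns 1 to 12, the set with most Foxp3 reads, and spleen cells with 10 Foxp3 reads held Gzmb in 47.9% of cases (interval 37.6% to 58.4%) against 28.9% of the others (interval 23.9% to 34.4%). Within that set the shares were 47.2% and 31.1%. Prf1 showed no such difference, at 10.4% of cells with and 11.5% of cells without Foxp3. After cells with a Foxp3 read were left out (9 SI cells, and 85, 26 and 8 cells of the 3 spleen sets), mean Gzmb was 1271 CPM in the spleen and 19595 CPM in SI, and the same 4 members were higher in SI. By spleen set mean Gzmb was then 1877, 1129 and 1163 CPM, so that p1 columns 1 to 12 kept the highest mean. The shares with 10 reads of Gzmb were 33.3%, 32.8% and 24.6%.

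How many of the 6 effector genes (the 4 granzymes, Prf1 and Nkg7) one cell held was counted next, at 10 reads each. SI cells held 3.66 of them on average (SD 1.28 over cells) and spleen cells 1.15 (SD 1.14), with 1.28, 1.25 and 0.885 in the 3 spleen sets. Of SI cells, 59.9% held 4 or more (interval 51.1% to 68.1%), against 3% of spleen cells (interval 1.56% to 5.18%). Cells with none were 2.19% of SI and 37.2% of spleen cells, and over p2 spleen cells this share was 52.5%. The most frequent number was 5 in SI and 0 in the spleen.

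**Figure D4:**
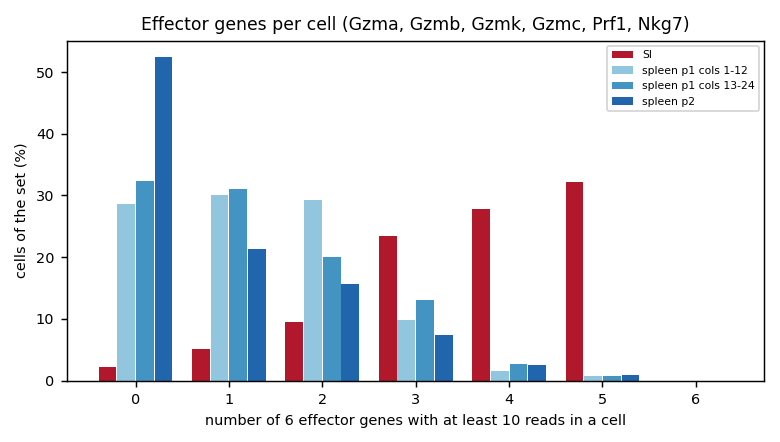
Number of the 6 effector genes with at least 10 reads in a cell (x axis) against the share of cells in each set (y axis, %). SI cells peak at 5 genes, and in p2 spleen 52.5% of cells held none.

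Most SI cells held Gzma and Gzmb together, while few spleen cells held 10 reads of Gzma. At 10 reads, 81.02% of SI cells and 3% of spleen cells held both. Of the 22 spleen cells with Gzma, 54.5% held Gzmb, against 32.3% of those without, and in SI the shares were 94.1% and 63.2%. By spleen set the shares were 42.9% and 39.7% in p1 columns 1 to 12 and 40% and 33.6% in p1 columns 13 to 24. In p2 they were 70% and 22.3%, so that the difference was large in p2 alone. These shares rest on 7, 5 and 10 spleen cells with Gzma. In SI, at 100 reads, where the low group of Gzma is left out, 75.9% held both. At 100 reads a further 16 SI cells held Gzmb alone, 3 held Gzma alone and 14 held neither. In the spleen, 110 of 400 cells (27.5%) held Gzmb alone at 100 reads, 5 held Gzma alone and 4 held both. The Spearman correlation of the 2 genes over SI cells was 0.62, and over spleen cells, where most cells have no Gzma, it was 0.10. Both are descriptions over cells that share libraries and depth.

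**Figure D5:**
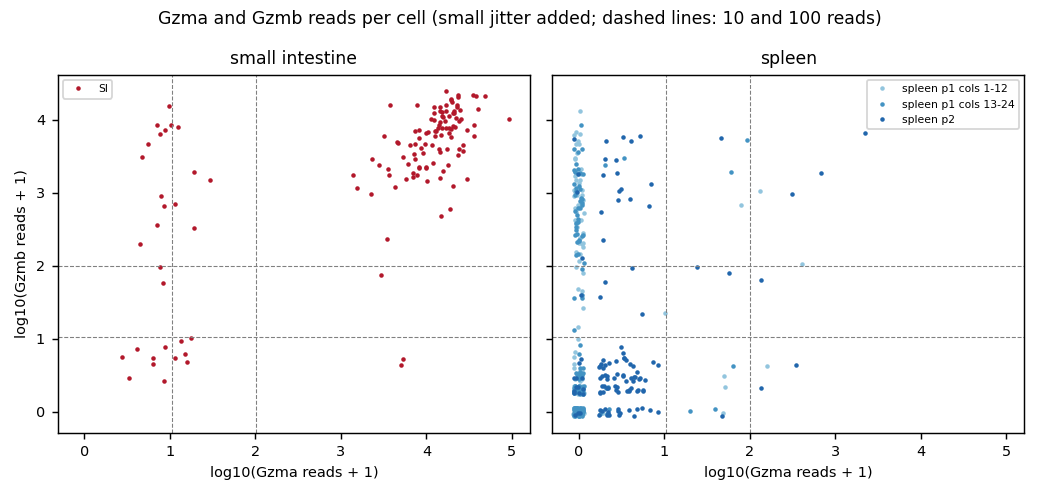
Reads of Gzma (x axis) and Gzmb (y axis) per cell, as log10(reads + 1), in SI (left) and spleen (right, coloured by well set). The dashed lines mark 10 and 100 reads, and the SI cells of the upper Gzma group start at 1213 reads.

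Perforin was found mainly in cells with Gzmb in both tissues. Of SI cells with 10 reads of Gzmb, 52.8% held 10 reads of Prf1, against 14.3% of the 14 cells without. In the spleen the shares were 27.6% and 3.01%. This held in each spleen set, with 24.5% against 5% in p1 columns 1 to 12, 36.7% against 3.12% in p1 columns 13 to 24, and 18.8% against 1.11% in p2. Seen from perforin, 97.01% of Prf1-positive SI cells carried Gzmb, but so did 82.9% of the other SI cells. In the spleen 82.2% of Prf1-positive cells carried Gzmb, against 27.3% of the others. Nkg7 followed the same pattern in the spleen, in 88.8% of cells with and 39.8% of cells without Gzmb. Gzmk joined Prf1 as well, as 70.8% of SI cells with Gzmk held Prf1 against 29.2% of those without. Srgn had a Spearman correlation of -0.26 with Gzmb in SI, and of -0.05, -0.28 and -0.03 in the 3 spleen sets.

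The SI cells in the low Gzma group differed from the others in further genes, of which Il17a and Foxp3 were chosen after their values had been seen. Of the 30 low cells, 43.3% held 10 reads of Il17a, a cytokine of Th17 cells, against 9.35% of the high cells. The 5 SI cells with 10 reads of Foxp3 were all low cells (16.7% of them). Prf1 was found in 20% of low and 57.01% of high cells, Gzmk in 6.67% and 58.9%, and Nkg7 in 73.3% and 99.1%. All 27 SI cells with 10 reads of Cd8a, a coreceptor chain that intestinal CD4+ T cells can gain, were high, as were 56 of the 58 cells with Itga1. Median reads were 315962 in low and 326138 in high cells, and median genes per cell 3118 and 3105, so that the groups were alike in depth.

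The granule genes were compared with receptors and cytokines of the same cells. In SI, cells with 10 reads of Itgae, the integrin chain that holds T cells in the epithelium, had a mean of 26208 CPM of Gzmb against 8944 CPM in the others, and Itga1-positive cells held Prf1 in 72.4% (interval 59.1% to 83.3%) against 31.6% (interval 21.6% to 43.1%). Cd8a-positive cells had a mean of 55262 CPM of Gzma against 32184 CPM. Cd8a itself had a mean of 489.4 CPM in SI and of 26.9 CPM in p1 columns 1 to 12, where 1 cell, at 3557 CPM, was the only one with 10 reads, and was under 1 CPM in the other spleen sets. Cd8b1, the chain that marks conventional CD8+ T cells, had a low mean, at 38.4 CPM in SI and at 53.3, 16.6 and 24.3 CPM in the spleen. At 10 reads, Cd8b1 was held by 5.61% of SI cells with 100 Gzma reads and by 6.67% of the other SI cells. In the spleen it was held by 33.3% of the 9 cells with 100 Gzma reads and by 10.997% of the others. The first of these spleen shares rests on few cells. Without cells holding 10 reads of Cd8a or Cd8b1 (30 SI and 46 spleen cells), mean Gzma was 32394 CPM in SI and 23.1 CPM in the spleen, the same 4 members were higher in SI, and Lamp1, at a log2 ratio of -1.64, passed the limit for lower genes.

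In the spleen, Gzmb marked cells with receptors of effector and tissue-homing T cells. Gzmb was held by 59.6% of cells with Cxcr6 (interval 51.6% to 67.3%) and 15.9% without (interval 11.5% to 21.2%), by 65.3% with and 23.6% without Havcr2, the TIM-3 gene, and by 57.3% with and 25.3% without Ifng. The reverse was found for the lymphoid homing receptors: 18.3% of cells with Cxcr5 and 44.6% of those without held Gzmb, as did 10.8% with and 40.4% without Ccr7. Il10 went with Gzmb too, at 39.6% of spleen cells with 10 Il10 reads and 13.04% of those without. Each of these 6 differences had the same direction in all 3 spleen sets, for Cxcr6 61.1% against 25.3%, 57.1% against 12% and 62.2% against 10.6%. In SI, where all but 6 cells held 10 reads of Il10, Gzmb was read in 90.1% of cells with it.

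Genes were ranked by the likeness of their levels over cells to Gzma, Gzmb and Prf1. Over SI cells, the nearest genes to Gzma were Gzmb (Spearman 0.62), Itgae (0.55), Amica1 (0.54), Cd7 (0.53) and Gzmk (0.50). Those nearest to Gzmb were Gzma, Itgae (0.54), Nkg7 (0.52), Prf1 (0.47) and Slamf7 (0.46), and those nearest to Prf1 were Gzmb, the chemokine gene Ccl5 (0.46), Gzmk (0.44), Nkg7 (0.42) and Mctp2 (0.40). In the spleen, over 400 cells, genes near to Gzmb were S100a4 (0.39), the granzyme inhibitor gene Serpinb6b (0.39), Cxcr6 (0.38) and Nkg7 (0.38). Genes near to Prf1 there were Nkg7 (0.35), Gzmb (0.35), Ccl5 (0.33) and Abcb9 (0.27). For spleen Gzma the highest value was 0.29 (H3f3b), and its levels there were mostly the low reads of p2. Of 3554 genes ranked in SI, Srgn stood at place 3512 for Gzmb.

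Of a list of serpin genes, a family of protease inhibitors of which some act on granzymes, 4 of 5 were higher in SI, beside 8.26% of all genes tested. Serpinb9, which inhibits granzyme B, was at 1459 CPM in SI against 186.02, 262.8 and 182.4 CPM in the spleen sets (log2 ratio 2.77). Serpinb6b was at 2015 CPM against 278.3, 307.9 and 320.5 CPM (2.73), Serpinb9b at a log2 ratio of 2.49 and Serpinb6a at 1.83. Serpina3g was at -0.06. The median of the list was 2.49, beside -0.22 for all genes tested.

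The other granule proteins had list medians near 0. Of 11 granule proteases and lysosomal proteins tested, 2 were higher and none lower, beside 8.26% and 16.8% of all genes tested, with a median log2 ratio of -0.10. These were Ctsw, a cathepsin of cytotoxic lymphocytes, at 457.2 CPM in SI against 57.6, 84.3 and 83.1 CPM (2.59), and Ctsl (1.96). Ctsc, which trims granzymes to their active form, was at 321.05 CPM against 256.6, 309.2 and 170.4 CPM. Of 17 tested genes of granule maturation, docking and release, 2 were higher, the synaptotagmin-like genes Sytl2 (1.69) and Sytl3 (1.58), and Lyst, which controls granule size, was lower at 17.4 CPM against 75.7, 70.3 and 53.8 CPM (-1.89). Rab27a and Unc13d, which dock and prime granules, had log2 ratios of -0.47 and -0.70, and the list had a median of -0.02. Of the other granzymes, Gzmd, Gzme, Gzmf and Gzmg had no read in any kept cell, and Gzmm and Gzmn were under 5 CPM.

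Among regulators of the cytotoxic program, 6 of 15 tested genes were higher in SI and 1 was lower, beside 8.26% and 16.8% of all genes tested. Bhlhe40 was at 1132 CPM in SI against 66.6, 151.2 and 131.7 CPM in the spleen sets (3.26), Id2 had a log2 ratio of 1.74, Nfil3 of 1.39 and Runx1 of 1.14. Runx3, a driver of cytotoxic genes in CD8+ T cells, was at 216.7 CPM against 112.2, 111.9 and 72.2 CPM (1.11), and Stat4 was at 1.10. Klf2, which maintains recirculation through lymphoid tissue, was lower (-4.25). The T-box factors were not higher in SI: Tbx21 was at 109.6 CPM in SI and at 270.99, 211.8 and 122.9 CPM in the spleen, and Eomes, at 4.38 CPM in SI, was below the limit for testing. Of 4 death ligand and cytokine genes tested, 3 were higher: Fasl (2.30), Tnfsf10, which encodes TRAIL (1.75), and Ifng (1.21).

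Markers of other cells, among them cells that carry granzymes or granule proteases, were mostly low. None of 8 NK cell markers reached a mean of 10 CPM in SI or over all spleen cells, while Eomes was at 12.2 CPM in p1 columns 13 to 24 and at 10.9 CPM in p2 spleen. In SI, Ncr1, Tyrobp and Klra8 had no read, and the summed level of the list had a mean of 16.2 CPM in SI and of 8.58, 24.4 and 33.1 CPM in the spleen sets. Of 6 mast cell markers, Mcpt1, Mcpt2, Mcpt4 and Fcer1a had no read, while Kit was higher in SI, at 24.8 CPM. Single genes of the B cell and myeloid lists were also higher in SI. Cd79b was at 19.7 CPM against 3.62, 8.15 and 11.7 CPM in the spleen sets (1.24). Cd68 was at 104.9 CPM against 24.9, 33.4 and 25.04 CPM (1.87). Ms4a1 and Lyz2 of these lists were at 0 in SI. The 6 epithelial markers summed to a mean of 20.2 CPM in SI and of 69.96, 26.5 and 15.5 CPM in the spleen sets. The part of these markers in the results was not tested. The γδ T cell list could not be examined, with 1 of its 5 genes among the rows used here.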

How the data were processed

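Deposited values were raw read counts per gene for all spleen and 190 SI cells. The authors aligned paired-end SMART-seq2 reads with STAR in 2 passes. The labels name mm10 while the methods name another mouse build, and the counting tool and annotation are not given in the sources used here. The methods describe RPKM, but the deposited columns were whole counts and were used as such. None of the 764 columns was left unused.

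Cells more than 3 median absolute deviations below their tissue median in log reads or log genes were removed, and cyclone from scran 1.30.0 then gave each cell a phase, with G1 cells kept. CPM left out the reporter row and was put in ratios with a pseudocount of 1 CPM, which understates ratios of low genes. Without molecular identifiers, reads are not independent molecules, and paralogous granzymes may share reads. Shares have exact Clopper-Pearson intervals. Transcript lengths came from GENCODE M21 and promoters from RefSeq, where all 8 members matched. TMM factors came from edgeR 4.0.16. The ratio and call steps were tested on simulated data in which the 3 spleen sets had the same gene levels. That test covers the working of the steps and not the calls made here. The labels name no animal, so that cells of a tissue are 1 sample, no p-value was computed and no replicate could be left out.

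The members and gene lists were chosen with earlier results of these data known. Named genes are the 8 members, up to 4 called genes per list by size of ratio, and the 5 genes nearest to Gzma, Gzmb and Prf1 among those with 10 reads in 25% of cells. A few genes that these rules would name are not reported here. Further genes of the lists are named for their roles, after their values were seen. Alternatives were other pseudocounts, scalings, cell filters, read limits, thinning to 200000 reads and single spleen sets. A limit of 100 reads and leaving out cells with Cd8a or Cd8b1 or with Foxp3 were added after seeing the data. Doublets were not called, since cells were sorted singly.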

Additional observations from a re-analysis of the deposited data

Results flagged for a closer look

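Cells called S or G2M had been left out of the comparisons. Of 16 shares of cells with 10 reads (8 members in 2 tissues), 5 were higher in these cells, in that their exact interval lay above the share of the G1 cells, a limit chosen after the values were seen. In the spleen, 48.95% of such cells held Gzmb (interval 40.5% to 57.4%), against 33.5% of 400 G1 cells, 68.5% held Nkg7 (interval 60.2% to 76.03%), against 56.2%, and 12.6% held Gzmk (interval 7.63% to 19.2%), against 7.25%. For Gzmb the shares by well set were 38.3% in p1 columns 1 to 12, where G1 cells were at 39.8%, 58.97% against 33.8% in p1 columns 13 to 24 and 50.9% against 26.2% in p2. Its mean was 676 CPM in the cycling and 1903 CPM in the G1 cells of p1 columns 1 to 12, 1561 and 1187 CPM in p1 columns 13 to 24, and 1685 and 1375 CPM in p2. For Nkg7 the shares were 63.8% in cycling and 64.7% in G1 cells of p1 columns 1 to 12. They were 82.1% and 63.4% in p1 columns 13 to 24, and 63.2% and 38.5% in p2. In SI, 4 of 34 cells called S or G2M (11.8%, interval 3.30% to 27.5%) held 10 reads of Gzmc, while no G1 cell did, and the means were 14.9 and 0.642 CPM. Lamp1 was read in 47.1% of these SI cells (interval 29.8% to 64.9%), against 25.5% of G1 cells. These cells share 1 sample per tissue, and the differences were not tested.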

How the results depend on the processing

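No paired analysis was possible because the labels name no animal and each tissue is 1 sample. Gzma, Gzmb, Gzmk and Prf1 kept a positive log2 ratio under all 14 alternatives, from 8.78 to 15.22, 3.34 to 11.38, 2.13 to 3.54 and 1.82 to 3.23. Between 3 and 5 members were higher: Nkg7 joined under both other scalings, within p2 and at a log2 limit of 0.5, and with the median CPM over cells Gzmk and Prf1 left while Nkg7 joined. TMM and median-of-ratios scaling moved the median of all genes from -0.22 to -0.00 and 0.02. The log2 ratio of Gzmc took both signs, as did that of Srgn. That of Lamp1 ran from -1.64 to 0. It passed -1 with a pseudocount of 0.1 CPM (-1.004), within p2 (-1.32), against p1 columns 1 to 12 (-1.02) and without cells holding Cd8a or Cd8b1 (-1.64). Under the other alternatives it did not. The absence of a lower member in the main comparison therefore depends on the setting.

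The read limit moved the shares most. At 1 read, SI and spleen cells held 4.20 and 2.14 effector genes on average, and at 100 reads 3.19 and 0.942. In p2 alone spleen cells held 0.885. Gzma and Gzmb were together in 100% of SI and 24.2% of spleen cells at 1 read, and in 1% of spleen cells at 100 reads. Gzmb and Prf1 were together in 13% of spleen cells at 1 read and in 5% at 100 reads, and in SI in 37.96% at 50 and 25.5% at 100 reads. Thinning moved none of the 16 shares of single members out of their intervals, while 1 read moved 11. With 1 sample per tissue, no spread between animals is known.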
